A study of Saccharomyces cerevisiae with 96 samples.

Results

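The transcripts described here are those of the large (60S) subunit of the cytosolic ribosome of *Saccharomyces cerevisiae*. They were taken as every probe set whose gene symbols, in the annotation supplied for the array, all read RPL, then digits, then nothing or A or B. Of the 9275 probe sets left after the array controls, 90 met this rule. They name 74 gene symbols that code for 42 proteins. Of the 90 probe sets, 10 belong to single-copy genes, 42 name 1 of 2 paralogs and 38 name both paralogs of a pair, whose transcripts cannot be told apart by them. A name such as RPL7B (7960_i_at) gives the probe set where a gene has several.

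The large subunit holds the peptidyl transferase centre, in which amino acids are joined, the tunnel through which the new chain leaves, and the stalks that receive the elongation factors. Growing yeast makes its protein components in equal numbers from very abundant mRNAs, most of them from a pair of paralogs, under shared regulators that include Rap1, Fhl1, Ifh1 and Sfp1. Nonsense-mediated mRNA decay (NMD) removes RNAs on which translation ends early, and unspliced or misspliced transcripts of some ribosomal protein genes are among its known substrates. *UPF1* codes for the RNA helicase on which NMD depends.

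The Nmd+ strain was S288C, with *UPF1* intact, and the Nmd- strain was the congenic YRZ1, in which KanMX4 replaces *UPF1*; both are MATα and share the markers CUP1, SUC2, flo1, flo8-1, gal2, mal and mel. Cells in mid-log growth received thiolutin, an inhibitor of transcription, at 10 µg/ml, and RNA was taken at 16 times from 0 to 60 min in 3 independent courses per strain, 1 array per course and time (96 Affymetrix YG-S98 arrays). The records of the 6 arrays of 4 min mention 14 µg/ml. Each strain is 1 line, so that a difference between them is a difference between these lines.

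The values are log2 signals that were scaled over all 96 arrays, so that array medians lay between 5.86 and 6.08 and a change is a change relative to the average RNA. An array has no depth in counts, and precision is limited by how many arrays there were. In such bulk RNA, fewer cells and less RNA per cell cannot be told apart. On 6 arrays the signal of *UPF1*, or of a probe set without a gene name that was otherwise high only in Nmd- (11.65 to 12.54 against 3.34 to 6.26), went against the label. They are the Nmd- arrays of replicate 1 at 10, 40, 45 and 50 min and the Nmd+ arrays of replicate 1 at 20 min and of replicate 3 at 60 min. They were kept under their labels. Medians, slopes and most counts of called large-subunit probe sets are also given without them. Counts of probe sets whose courses lay wholly apart are not. A count under such an alternative carries no share over all probe sets, and shows only how far the count moved. Arrays of replicate 1 were scanned mostly in another period than those of replicates 2 and 3.

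The large-subunit transcripts were abundant in both strains, and 97.8% of their probe sets lay above the array median on most arrays. Averaged over all arrays, the log2 value of the 90 probe sets had a median of 11.0, 65 lay between 10 and 12 and 11 above 12, while the highest value on any array was 14.16. The exceptions were 8 probe sets under 9. *RPL41A/B* (4.16) and RPL7A (7473_at) were the 2 under 6, near the 1.93 to 3.81 that the deleted *UPF1* gave in Nmd-, and their changes carry little information. The mean over the 90 probe sets at 0 min was 11.07, 11.32 and 11.14 in the Nmd+ courses and 10.90, 11.20 and 11.33 in the Nmd- courses. These ranges overlap.

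**Figure D1:**
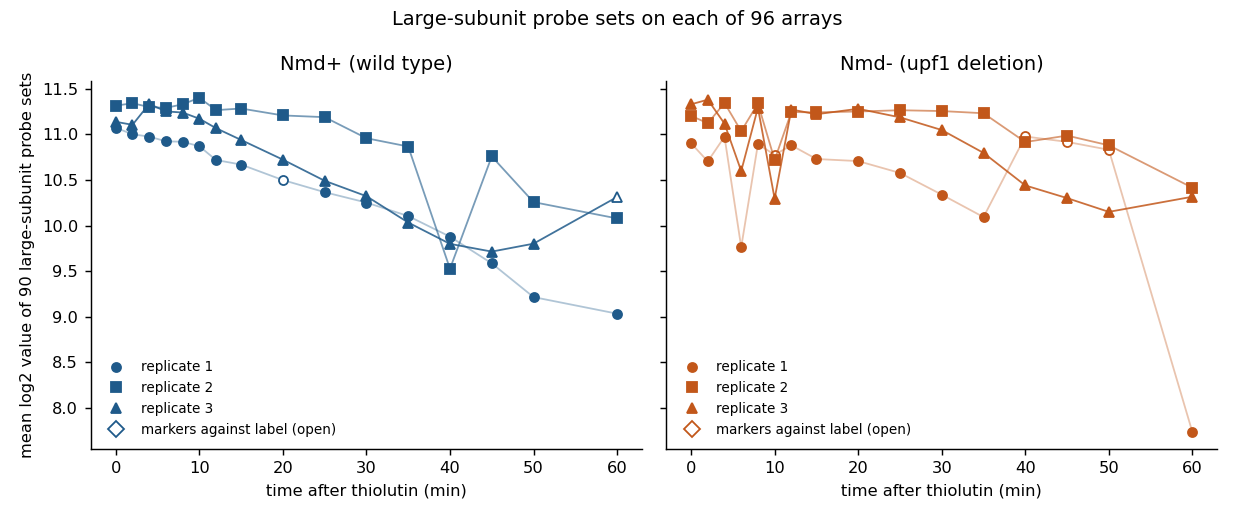
Mean log2 value of the 90 large-subunit probe sets (vertical axis) on each of the 96 arrays against time after thiolutin in min, with 1 symbol per course and open symbols for the 6 arrays with markers against the label. The Nmd+ courses go from about 11.2 at 0 min to 9.03, 10.08 and 10.31 at 60 min, and the Nmd- array of replicate 1 at 60 min stands apart at 7.74.

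Over the hour the large-subunit transcripts declined relative to the average RNA in both strains, and the decline began late. In Nmd+ the mean over the 90 probe sets was 11.18 ± 0.13 (SD, n = 3) at 0 min, 11.15 ± 0.27 at 10 min, 10.81 ± 0.36 at 20 min, 10.51 ± 0.39 at 30 min and 9.76 ± 0.52 at 50 min. In Nmd- it was 11.15 ± 0.22 at 0 min, 10.60 ± 0.26 at 10 min, 11.08 ± 0.32 at 20 min, 10.88 ± 0.48 at 30 min and 10.62 ± 0.41 at 50 min. Those of 10 and 50 min each include 1 array whose markers go against its label. At 60 min the order was reversed, with 9.81 ± 0.68 in Nmd+ and 9.49 ± 1.52 in Nmd-. The first of these includes 1 array with markers against its label, the second the low array of replicate 1. A line through each course gave a mean slope below 0 for 89 of 90 probe sets in each strain. The median slope was -1.77 per 60 min on the log2 scale in Nmd+ and -0.88 in Nmd-, and the slope was steeper than -1 for 80 probe sets in Nmd+ and for 32 in Nmd-. *RPL15B* was the exception in both strains. Without the 6 arrays with markers against the label the medians were -1.90 and -1.32, with 82 and 69 probe sets steeper than -1. Without the low Nmd- array of 60 min in replicate 1 as well, the Nmd- median was -0.70 and 24 were steeper than -1. Across probe sets of the same arrays, Pearson's r between slope and mean level was 0.02 in Nmd+ and 0.03 in Nmd- over 90 probe sets, and 0.23 and 0.14 over the 82 with a mean above 9.

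Some single arrays stood apart from their neighbours in time. In Nmd- the mean over the 90 probe sets was 9.76 at 6 min in replicate 1, 10.60 at 6 min and 10.30 at 10 min in replicate 3, and 10.72 at 10 min in replicate 2. On these 4 arrays, 73 to 87 of the 90 probe sets were lower than at both neighbouring times. In Nmd+ the 40 min array of replicate 2 had a mean of 9.53, with 87 probe sets lower than at both neighbouring times and RPL7B (7960_i_at) at 1.85. The small-subunit probe sets were low on the same arrays, with means of 9.58, 10.56, 10.14, 10.5 and 9.58. On the Nmd- array of replicate 1 at 60 min, the large-subunit mean was 7.74 and the small-subunit mean 7.58. Their difference in *ACT1* signal between 3′ and 5′ probe sets (0.98 to 1.14) lay within the range of all arrays (0.51 to 1.26), and whether RNA quality or handling had a part in these values was not tested. The strain mean of Nmd- alternated, with 11.15, 10.47, 11.18, 10.60 and 11.13 at 4, 6, 8, 10 and 12 min. At 6 min replicate 2 of Nmd- was also lower, at 11.04, with 71 probe sets below both neighbouring times. The Nmd- array of 35 min in replicate 1 had 10.09, with 82 below both.

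To ask whether loss of *UPF1* altered the abundance of the large-subunit transcripts in growing cells, the strains were compared at 0 min. As a group they did not stand apart: the median difference, Nmd- minus Nmd+, was 0.01 on the log2 scale, while it was -0.05 over all 9275 probe sets, with 47 probe sets above 0 and 43 below. Calls required an adjusted p under 0.05 (limma, Benjamini-Hochberg over 9275 probe sets) together with a difference of 1.5-fold or more. By this rule 1 large-subunit probe set was higher in Nmd- and 2 were lower, that is 1.11% and 2.22%, against 4.28% and 0.701% of all probe sets. All 3 Nmd- values lay above all 3 Nmd+ values for 5 of the 90 probe sets (13.8% of all probe sets) and below them for 5 (10.8% of all probe sets).

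*RPL22B* was the one probe set called higher. It codes for the minor paralog of Rpl22, a protein near the tunnel exit, and in yeast its unspliced transcript is a known NMD substrate. At 0 min its log2 values were 8.71, 9.48 and 8.94 in Nmd+ and 9.97, 10.16 and 10.44 in Nmd-. The groups did not overlap, and *RPL22B* was 2.21-fold higher in Nmd- (log2 1.15, standard error 0.25, adjusted p = 0.0424 by limma). The paralog *RPL22A* was not different at this size (log2 0.02, standard error 0.19, adjusted p = 0.969), with means of 12.77 ± 0.13 (SD, n = 3) in Nmd+ and 12.80 ± 0.16 in Nmd-. The call of *RPL22B* was lost when any single course other than Nmd+ replicate 2 was left out.

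The higher level of *RPL22B* in Nmd- was present at most later times, though not on every array. Its mean was higher in Nmd- at 15 of 16 times, and at 8 of them all 3 Nmd- values lay above all 3 Nmd+ values. At 8 min it had 7.09, 8.43 and 8.24 in Nmd+ and 9.29, 10.04 and 10.28 in Nmd-. In Nmd- it alternated early in the course. The values at 2 min were 7.94, 8.96 and 9.77, those at 4 min 9.55, 9.87 and 9.81, those at 6 min 8.08, 8.09 and 8.41, and those at 10 min 7.08, 8.88 and 8.85, so that the Nmd- values at 6 min lay within the Nmd+ range of 7.88 to 9.56. The 10 min value of replicate 1 comes from an array whose markers go against its label.

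The 2 probe sets called lower in Nmd- at 0 min both name *RPL17B*, one paralog of the tunnel protein Rpl17. RPL17B (11205_i_at) had log2 values of 12.08, 12.52 and 11.95 in Nmd+ and 10.27, 10.48 and 11.21 in Nmd-, a difference of -1.53 (standard error 0.29, adjusted p = 0.0253 by limma). RPL17B (11206_f_at) had a difference of -1.40 (adjusted p = 0.0185 by limma), and the groups did not overlap in either. The third probe set of the gene, RPL17B (11203_i_at), had 11.32, 11.50 and 11.33 in Nmd+ and 9.67, 11.36 and 10.97 in Nmd-, and was not called (-0.72, adjusted p = 0.388 by limma). In replicates 1 and 2 of Nmd-, RPL17B (11205_i_at) was back at 11.76 and 12.00 by 2 min, beside 11.98 and 12.39 in Nmd+, whereas replicate 3 stayed at 10.72 to 11.21 over the first 10 min. Both calls were lost without replicate 1 or 2 of either strain, and none of the 3 calls at 0 min remained in a fit over all 96 arrays. The median difference over the 90 probe sets was 0.10 in the scan period with 2 arrays against 1, and -0.28, with 78 below 0, in the one with 1 array against 1.

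Among the other genes with a known link between splicing and decay, *RPL28*, whose intron-containing transcript is a classical NMD substrate, had 10.88, 11.12 and 10.94 in Nmd+ and 11.20, 11.34 and 11.30 in Nmd- at 0 min. All 3 Nmd- values were higher, but the difference of 0.30 (standard error 0.18, adjusted p = 0.405 by limma) did not pass. *RPL30*, whose protein represses the splicing of its own transcript, differed by 0.14 (standard error 0.18). The probe sets do not separate spliced from unspliced RNA. Of the genes that stood far from 0 without a call, *RPL39* (-0.83) rested on 1 Nmd- array at 8.22 beside 10.35 and 10.65, and *RPL37B* (0.90) on 1 Nmd+ array at 9.84 beside 12.25 and 12.52.

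**Figure D2:**
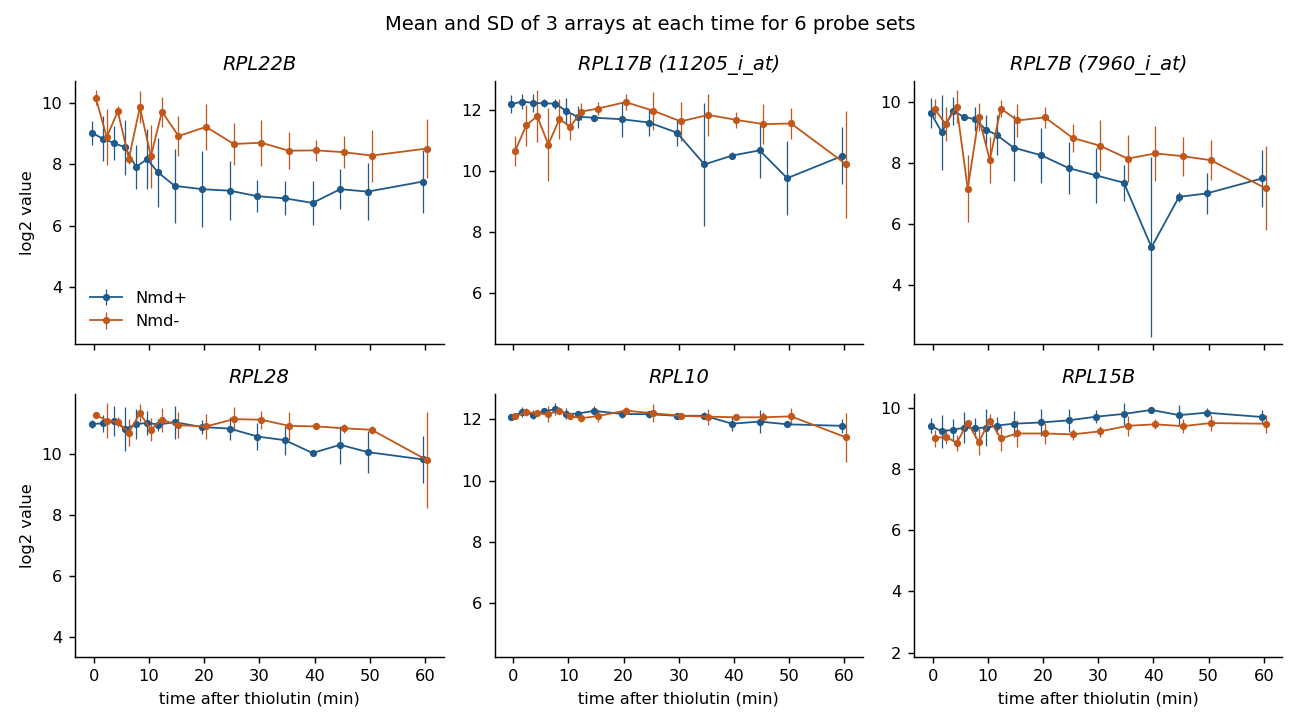
Log2 value (vertical axis, a span of equal length in every panel) against time after thiolutin in min for 6 probe sets, with points at the mean and bars at the SD of the 3 arrays of a strain. *RPL22B* is higher in Nmd- at 15 of 16 times, RPL17B (11205_i_at) starts lower in Nmd-, and the mean slopes of *RPL10* and *RPL15B* in Nmd+ are -0.45 and 0.62 per 60 min.

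The course was then divided into 3 phases that were tested in each strain with 1 value per course: a first response (6-10 against 0-2 min), a middle phase (20-30 against 6-10 min) and a late phase (45-60 against 20-30 min). The tests of both strains shared 1 estimate of the spread, taken from the courses of both. In the first response of Nmd+ the large-subunit transcripts held their level. The median change was -0.02, 58 of 90 probe sets were below 0 and none was called, while 0.496% of all probe sets were called higher and 0.852% lower; at an unadjusted p under 0.05 there were 3 of 90, against 14.3% of all. *RPL22B* had the lowest value (-0.72, standard error 0.15, adjusted p = 0.0536 by limma).

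In the first response of Nmd-, 13 large-subunit probe sets fell and none rose, that is 14.4% lower against 5.65% of all probe sets (4.59% of all were higher). The median over the 90 was -0.33, and 84 were below 0. The course medians were -0.26, -0.09 and -0.60. *RPL36A*, a structural protein gene, fell by 0.89 (standard error 0.13, adjusted p = 0.00468 by limma), with -0.79, -1.04 and -0.84 in the 3 courses, and both *RPL7B* probe sets fell (2.41-fold and 2.72-fold). *RPL6B*, *RPL9B*, *RPL13A*, *RPL21B*, *RPL27B* and *RPL33B* were also among the 13, as was *RPL22B* (-0.76). These calls lie on the 6 and 10 min arrays named above: with 8 min alone in place of 6-10 min, none was called and the median was 0.04. The difference between the strains in the first response was called higher for 0.0431% of all probe sets, lower for 0%, and for none of the 90 (median -0.29, 20 of 90 at an unadjusted p under 0.05 against 12% of all). Without the 6 arrays the median was -0.36 in the first response of Nmd-, with 22 called, and -0.33 for the difference between the strains.

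In the middle phase of Nmd+ the decline became measurable. Here 25 of the 90 probe sets fell and none rose, 27.8% lower against 4.74% of all probe sets (3.27% of all were higher). The median change was -0.48 (1.39-fold), 84 of 90 were below 0, and the courses had medians of -0.51, -0.19 and -0.63. RPL7B (7960_i_at) fell furthest, with -1.61, -0.77 and -1.99 in the 3 courses (mean -1.46, standard error 0.22, adjusted p = 0.0156 by limma). *RPL36A* fell 2.61-fold, *RPL22B* 2.18-fold and *RPL13A* 1.97-fold. *RPL21B* (-0.95), *RPL27B* (-0.96), *RPL33B* (-0.90), *RPL38* (-0.80), *RPL22A* (-0.64) and 2 of the 3 *RPL17B* probe sets were called as well. Replicate 2 had the smallest decline, and the count was 0 without replicate 1 of Nmd+ and 1 without replicate 3. Within the 2 scan periods that hold both windows the median was -0.57 and -0.43.

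In Nmd- the same interval showed no decline when counted from 6-10 min. No large-subunit probe set was called, as no probe set on the array was (0% in either direction, while 6.43% of all and 14 of the 90 had an unadjusted p under 0.05). The median was 0.22, and 85 of 90 were above 0. This value was taken from the low 6 and 10 min arrays: counted from 8 min alone the median was -0.15, and from 0-2 min it was -0.10. Without the 6 arrays it was 0.28, with none called. Nmd+ gave -0.49 and -0.46 with the same windows.

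The difference between the strains in the middle phase was tested after the data had been seen. It was called higher in Nmd- for 29 of the 90 probe sets and lower for none, 32.2% against 3.73% of all probe sets (3.05% of all were lower), and the median difference was 0.70. In 49 of the 90 (54.4%) every Nmd+ course was below 0 and every Nmd- course above it, against 6.05% of all probe sets, and in none was it the reverse (6.21% of all). The 49 were counted from the low 6 and 10 min arrays of Nmd- and were not recomputed with another window or without the 6 arrays. From 8 min alone or from 0-2 min the Nmd- median was below 0. Without the 6 arrays 43 were called (median 0.77). RPL7B (7960_i_at), with 0.34, 0.87 and 0.92 in the Nmd- courses beside the Nmd+ values above, differed by 2.16 (standard error 0.32, adjusted p = 0.0256 by limma). *RPL22B* differed by 1.22 and *RPL36A* by 1.70. None of the 29 remained called with 8 min alone or with 0-2 min as the earlier window, where the median difference was 0.31 and 0.38, nor when either of the Nmd- courses 2 and 3 or the Nmd+ courses 1 and 3 was left out.

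In the late phase the large-subunit transcripts fell in both strains. In Nmd+ 34 of 90 probe sets fell and none rose, 37.8% lower against 1.65% of all probe sets (0.291% of all were higher), with a median of -0.79 (1.73-fold), course medians of -1.13, -0.72 and -0.56 and 88 of 90 below 0. In Nmd- 20 fell and none rose, 22.2% lower against 1.34% of all (0.442% of all were higher), with a median of -0.72 (1.65-fold), course medians of -0.75, -0.41 and -0.96 and 89 of 90 below 0. Of the called probe sets 18 were shared, 52.9% of those in Nmd+ and 90% of those in Nmd-. Because both tests used the same estimate of the spread, part of this overlap may come from the design. The overlap over all probe sets was not computed. The difference between the strains in this phase had a median of 0.12, none was called in either direction (0% of all probe sets in both), and 1 of 90 had an unadjusted p under 0.05 against 3.54% of all. Its direction was not stable: the median was -0.55 without the 6 arrays, 0.48 without the Nmd- array of 60 min in replicate 1, 0.20 without all 7, and -0.02 without replicate 2 of Nmd- or replicate 1 of Nmd+.

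The late calls depended on single arrays. Left out together, the 6 arrays with markers against the label reduced the Nmd+ count from 34 to 0, with a median of -0.85, and it was also 0 without any one Nmd+ course. The Nmd- count of 20 was 0 without replicate 2 or 3 of Nmd- or replicate 1 or 2 of Nmd+. The Nmd- count became 59 without those 6 arrays, when replicate 1 rested on its 60 min array alone, 0 (median -0.36) without that array, and 36 (median -0.69, from replicates 2 and 3) without all 7. With a replicate block the counts were 61 in Nmd+ and 59 in Nmd- (r between same-numbered courses in this phase 0.13, 0.41 and 0.21 over all probe sets). In the scan period that holds replicates 2 and 3, the median was -0.66 in Nmd+ and -0.69 in Nmd-, with 88 of 90 probe sets below 0 in each.

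**Figure D3:**
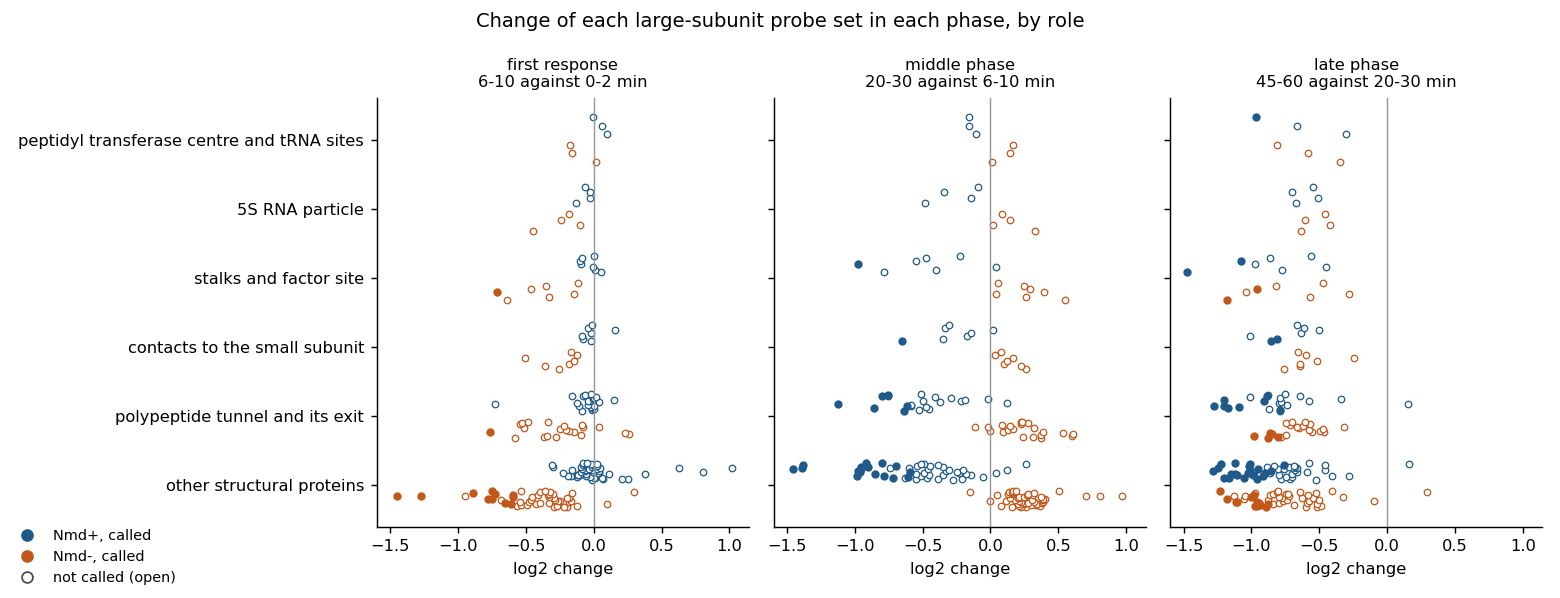
Log2 change (horizontal axis) of each of the 90 large-subunit probe sets in the 3 phases, in rows by the role of the protein, with Nmd+ above Nmd- in each row and filled points for probe sets that passed the test. In the late phase nearly all points of both strains lie left of 0 (88 and 89 of 90), while in the middle phase Nmd+ lies left of 0 and Nmd- mostly right of it.

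By role, the late medians in Nmd+ ranged from -0.95 to -0.59 without the 6 arrays, with none called, and those in Nmd- from -1.55 to -1.12. Without all 7 arrays the Nmd- medians ranged from -0.80 to -0.42. The late values by role that follow include these arrays.

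The 3 probe sets of the peptidyl transferase centre and tRNA sites had a median of -0.16 in the middle phase of Nmd+, and none was called there. They are those of *RPL2A/B*, *RPL3* and *RPL10*, whose product joins the subunit late, in the cytoplasm. In the late phase *RPL3* fell by 0.97 in Nmd+ (1.95-fold, courses -1.39, -0.73 and -0.78, adjusted p = 0.0371 by limma) and had -0.81 in Nmd- (adjusted p = 0.0606 by limma). *RPL2A/B* had -0.66 and -0.58 and was not called. *RPL10* had the smallest late change of the 3. Its 0 min values were 12.09, 12.10 and 12.08 in Nmd+ and its 60 min values 11.58, 11.76 and 12.05, and its late changes were -0.30 in Nmd+ and -0.35 in Nmd- (adjusted p = 0.449 and 0.208 by limma).

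The 4 probe sets of the 5S RNA particle, which *RPL5* and *RPL11A/B* code for, ranged from -0.70 to -0.51 in the late phase of Nmd+ and from -0.64 to -0.42 in Nmd-. None was called. *RPL5* itself had -0.54 and -0.46. These proteins enter the subunit together with the 5S RNA.

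Of the 7 probe sets of the stalks and the factor site, 2 fell in the late phase of each strain. RPL40A/B (10473_i_at) fell furthest of all 90 in Nmd+. Rpl40 is made as a fusion with ubiquitin. The probe set had 10.46, 11.22 and 10.77 at 0 min and 7.62, 8.94 and 9.25 at 60 min in Nmd+, and its late changes were -1.47 in Nmd+ (standard error 0.21, adjusted p = 0.0208 by limma) and -1.18 in Nmd- (adjusted p = 0.0416 by limma). The other 2 probe sets that name the same pair gave -0.78 and -0.45 in Nmd+ and were not called, so the size of this decline is uncertain.

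Probe sets of the tunnel and its exit behaved more like the whole group, with 8 of 21 called lower in the late phase of Nmd+ and 5 of 21 in Nmd-. All 3 *RPL17B* probe sets fell in both strains, by 1.17 to 1.28 in Nmd+ and by 0.85 to 0.98 in Nmd-. *RPL25*, coding for the docking site of the signal recognition particle at the exit, had -1.01 in Nmd+ (adjusted p = 0.0591 by limma) and -0.72 in Nmd-. *RPL22B* was the exception, with -0.12, -0.58 and 1.15 in the Nmd+ courses, the last of which holds an array with markers against the label, and with a mean of -0.47 in Nmd-.

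Among the 7 probe sets of proteins that contact the small subunit, 2 fell in the late phase of Nmd+ and none in Nmd-, with *RPL30* at -0.64 and -0.52. The remaining 48 probe sets of other structural proteins held most of the calls, 21 in the late phase of Nmd+ and 13 in that of Nmd-. *RPL13A* fell 2.44-fold and 2.26-fold, *RPL36B* 2.37-fold and 1.98-fold and *RPL6B* 2.17-fold and 2.35-fold. *RPL28* had -0.70 and -0.58 and did not pass. *RPL15B* did not decline at all: it had 9.47, 9.15 and 9.64 at 0 min and 9.98, 9.64 and 9.51 at 60 min in Nmd+, with late changes of 0.16 in Nmd+ and 0.29 in Nmd- that were not called.

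How far paralogs differed varied with the phase. For 16 pairs with a probe set for each copy, the 2 copies differed by a median of 0.48 in the middle phase of Nmd+, with 4 pairs within 0.25, and the B copy was the lower one in 12 pairs. In the late phase of Nmd+ the median difference was 0.19, 10 pairs were within 0.25 and the A copy was the lower one in 11. In the first response of Nmd+ 12 pairs were within 0.25. In the late phase of Nmd- the median difference was 0.29, and the B copy was the lower one in 11 pairs. The late phases of both strains and the middle phase of Nmd+ include arrays with markers against the label. In the late phase of Nmd+ that array belongs to replicate 3. The differences between copies and their order were not recomputed without these arrays. Whether the change of order between the middle and late phases of Nmd+ depends on them was therefore not tested. *RPL9A* had 0.04 in the middle phase of Nmd+ while *RPL9B* fell by 0.95. *RPL15A* fell by 0.96 in the late phase of Nmd+ and by 0.90 in Nmd-, opposite to the small positive values of *RPL15B*. Probe sets that name the same pair could differ as much. The 3 that name *RPL4A/B* spanned 0.86 in the late phase of Nmd+, from -1.20, in a probe set with a mean log2 value of 6.35, to -0.34, so that part of a difference between paralogs may lie in the probe sets, which was not tested.

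The strains were also compared over the last part of the course and by their slopes. At 35-60 min 88 of the 90 probe sets were higher in Nmd-, with a median difference of 0.53, beside -0.06 over all probe sets. None was called (0% of all probe sets were called higher and 0% lower), and 12 of 90 had an unadjusted p under 0.05 against 10.4% of all. The 4 highest differences were those of *RPL22B* (1.35, standard error 0.43), the 2 *RPL7B* probe sets (1.20 and 1.16) and the shared RPL7A/B (1.09). When the 6 arrays with markers against the label were left out, 3 of which are Nmd- arrays of 40, 45 and 50 min, the median was 0.12. Without these and the Nmd- array of 60 min in replicate 1 it was 0.58. Within scan periods it was 1.13, 0.59 and, for 1 array against 1, -3.21. The 1.13 set 4 Nmd- arrays of replicate 1, 3 of them with markers against the label, against 5 Nmd+ arrays. Called probe sets numbered 30 in a fit over all 96 arrays, 26 when scan periods were blocked and 1 with a replicate block (same-numbered courses correlated at r = 0.53, 0.36 and 0.72). The fits with 30 and 26 took the arrays of a course as independent, although the course is the replicate.

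The slope over 0-60 min was less steep in Nmd- for 89 of 90 probe sets, by a median of 0.78 per 60 min on the log2 scale, while 49.6% of all probe sets were above 0. The course medians were -2.17, -1.42 and -1.69 in Nmd+ and -1.26, -0.36 and -0.97 in Nmd-, so that every Nmd- course lay above every Nmd+ course. For 37 of the 90 probe sets (41.1%) all 3 Nmd- slopes lay above all 3 Nmd+ slopes, against 9.41% of all probe sets, and for none did they lie below, against 11.1% of all. The order of the courses and these counts were not recomputed without the 6 arrays with markers against the label. Replicate 1 of Nmd- holds those of 10, 40, 45 and 50 min. In the test 48 of 90 had an unadjusted p under 0.05, against 14.7% of all, yet none was called, and of all probe sets 0% were called higher and 0.0431% lower. The largest differences were those of the 3 *RPL17B* probe sets (1.77 to 2.17, smallest adjusted p = 0.0975 by limma), which started lower in Nmd-.

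That difference in slope kept its sign wherever it was recomputed, with a median of 0.51 without the 6 arrays, 1.25 without the Nmd- array of 60 min in replicate 1, 1.12 without all 7, and 2.27 and 0.83 within the 2 scan periods that allowed it (90 and 88 of 90 above 0). The 2.27 rests, for Nmd-, on 11 arrays of replicate 1. Those of 10, 40, 45 and 50 min among them have markers against the label, and the low 60 min array is not included. It is therefore no independent support for the sign. Called probe sets numbered 9 in a fit over all 96 arrays, 30 when scan periods were blocked and 0 with a replicate block. The fits with 9 and 30 took the arrays of a course as independent, although the course is the replicate.

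**Figure D4:**
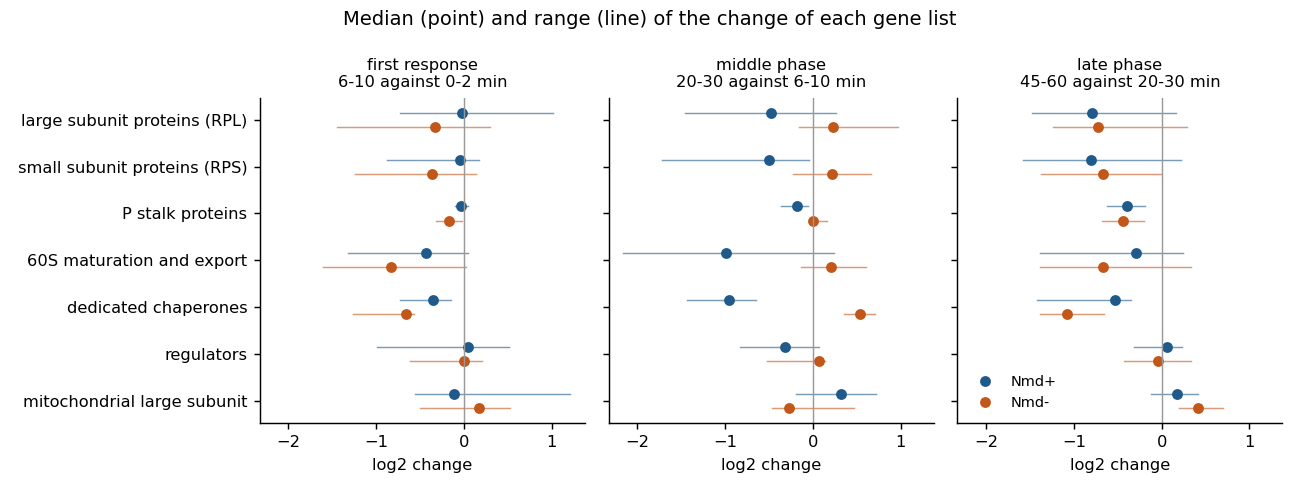
Median (point) and range (line) of the log2 change (horizontal axis) in the 3 phases for the 90 large-subunit probe sets and 6 other gene lists, with Nmd+ above Nmd- in each row. The large- and small-subunit lists lie at nearly the same medians (-0.79 and -0.80 in the late phase of Nmd+), and the mitochondrial list lies on the other side of 0.

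The same values for related genes place the large subunit among them. The 68 probe sets of the small subunit gave nearly the same medians: -0.49 in the middle phase of Nmd+, with 24 called lower, -0.80 in its late phase, with 31 called lower, and -0.66 in the late phase of Nmd-, with 18 called lower. The difference in slope was 0.82 for them. Without the 6 arrays none of the 68 was called in the late phase of Nmd+ (median -0.82) and 47 were in that of Nmd- (median -1.34), the latter being 28 (median -0.69) without all 7. The 6 probe sets of the acidic and core P stalk proteins, which are not named RPL, had late medians of -0.39 and -0.44, with none called. The 35 probe sets of the large subunit of the mitochondrial ribosome had late medians above 0, 0.17 in Nmd+ and 0.41 in Nmd-, with none called.

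In Nmd+, genes that build the 60S subunit had most of their calls before the late phase. Of 37 probe sets for maturation and export factors, 7 fell in the first response of Nmd+ and 20 in its middle phase (median -0.99), but 4 in its late phase (median -0.29). *NOG1*, a GTPase of nuclear 60S maturation, fell 4.46-fold in the middle phase of Nmd+, *MRT4* 3.41-fold and *RPF2* 3.24-fold. *NMD3*, the export adaptor, was called lower in the late phase of both strains (2.45-fold in Nmd+ and 2.62-fold in Nmd-). It also declined in the middle phase of Nmd+, as its Nmd- change there was 0.60 and the strain difference 1.45. The late values of *NOG1*, *MRT4* and *RPF2*, none called, were -0.09, -0.37 and -0.67 in Nmd+ and -1.15, -1.075 and -1.20 in Nmd-. In Nmd- 27 of the 37 fell in the first response, where 4 low arrays lie, and 2 in the late phase, but 28 in the late phase without the 6 arrays and 25 without all 7. None of the late calls of these lists in Nmd+ remained without the 6 arrays. Of the 5 dedicated chaperones, which hold single large-subunit proteins until they are used, 4 fell in the middle phase of Nmd+, and *RRB1*, the chaperone of Rpl3, fell again in the late phase of both strains (2.67-fold and 2.62-fold). Of 18 probe sets for the regulators, *IFH1* fell in the middle phase of Nmd+ (1.78-fold) and *HMO1* was higher in Nmd- at 0 min (1.76-fold), and no other was called in any comparison.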

How the data were processed

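Values were those of 96 Affymetrix YG-S98 arrays, deposited by the authors as robust multi-chip average (RMA) log2 signals over all arrays. The methods call them natural logs, but the largest is 14.16 and 16-bit intensities reach only 11.09 as natural logs, so they were taken as log2. Strain, time and replicate came from the titles, since the source names give upf1- for every array. The 60 control probe sets were left out and 9275 tested. Each course gave 1 value per comparison, fitted with limma 3.58.1 (lmFit, eBayes) in R 4.3.3 with Benjamini-Hochberg adjustment over all 9275; the fit was tested on simulated data. There were 9 comparisons, with 10 kinds of alternative; 3 comparisons of phase changes between strains and 4 kinds of alternative were added after seeing the data. The members and lists were chosen with earlier results of these data known. Named genes were the 3 highest and 3 lowest of each comparison, up to 6 called in each direction, and *RPL3*, *RPL5*, *RPL10*, *RPL21B*, *RPL22A*, *RPL22B*, *RPL25*, *RPL28*, *RPL30*, *RPL40A/B* and *RPL41A/B*; other called genes were named to show a role or a paralog, after their values were seen. Reference centring used 109 of the 110 probe sets that the study took as stable. The series has no columns of other samples. Sequences were not used here.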

Additional observations from a re-analysis of the deposited data

Results flagged for a closer look

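In the middle phase the difference between the strains passed the test for 29 large-subunit probe sets, each with a higher value in Nmd-. The log2 differences were 2.35 and 2.16 for the 2 probe sets of *RPL7B*, 1.70 for *RPL36A*, 1.45, 1.23 and 1.12 for the 3 of *RPL17B*, 1.42 for *RPL6B*, 1.37 for RPL12A/B (5781_i_at), 1.36 for *RPL13A*, 1.36 for *RPL27B*, 1.34 for RPL40A/B (10473_i_at), 1.32 for *RPL21B*, 1.24 and 0.87 for 2 of *RPL7A*, 1.23 for *RPL9B*, 1.22 for *RPL22B* and 1.21 for *RPL33B*. They were 1.32, 1.08 and 0.91 for the 3 probe sets of *RPL14A/B*, 1.01 for *RPL22A*, 0.99 for *RPL37B*, 0.99 for *RPL38*, 0.98 for RPL31B (9897_f_at), 0.92 for RPL43A/B (10933_at), 0.85 for *RPL17A/B*, 0.84 for RPL27A (4529_f_at), 0.82 for *RPL42A/B* and 0.81 for RPL11A/B (4921_i_at). For 49 of the 90 probe sets every Nmd+ course was below 0 and every Nmd- course above it, as were those of 6.05% of all 9275 probe sets. That count was not recomputed from 8 min alone or from 0-2 min, where the Nmd- median was below 0. None of the 29 remained called when the phase was counted from 8 min alone or from 0-2 min, and the part of the low Nmd- arrays of 6 and 10 min in these values was not tested beyond that.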

How the results depend on the processing

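The median change of the large-subunit probe sets stayed below 0 under every alternative fit in the Nmd+ middle phase (-0.83 to -0.37), the Nmd+ late phase (-1.0 to -0.66) and the Nmd- late phase (-1.43 to -0.36), and above 0 for the strain difference at 35-60 min (0.12 to 0.75), in slope (0.51 to 1.25) and in the middle phase (0.31 to 1.16). At 0 min it was -0.13 to 0.12, in the late difference -0.55 to 0.48, and in the first response of Nmd- (-0.64 to 0.04) and the Nmd- middle phase (-0.15 to 0.32) it depended on the early window. Values within single scan periods, which are no fits, went outside these ranges: -3.21 and 1.13 at 35-60 min, 2.27 for slope, -2.93 in the Nmd- late phase, -1.09 in the Nmd+ late phase, -0.47 and 0.33 in the Nmd- middle phase, 0.11 in the Nmd- first response and -0.28 at 0 min. Of these, 1.13 and 2.27 rest on Nmd- arrays of replicate 1 that include some with markers against the label.

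Counts of called probe sets moved more. They are given without the share over all probe sets in the same fit, so they do not set the members apart from the array. At 0 min, the 1 higher and 2 lower became 0 and 0 in a fit over all 96 arrays, with a replicate block, with scan periods blocked and after removal of a running median along the probe set numbers, and the 1 higher became 0 with reference centring. In 1 fit over all 96 arrays the count was 30 at 35-60 min, 14 lower in the Nmd+ middle phase, 0 in the Nmd- first response, 37 in the Nmd- late phase, 9 for slope and 9 for the middle difference. That fit and the fit with scan periods blocked took the arrays of a course as independent, although the course is the replicate. With a replicate block the count was 1 at 35-60 min, 61 in the Nmd+ late phase and 59 in the Nmd- late phase. Same-numbered courses had r of 0.36 to 0.72 at 35-60 min, 0.12 to 0.41 in slope and 0.13 to 0.41 in the late phase. In the others r was -0.30 to 0.20, so the ranges overlap. The block left the call counts of the Nmd+ middle phase (26), the Nmd- first response (10) and the middle difference (31) within 1.5 times. With scan periods blocked the counts were 26, 66 (Nmd+ late), 1 (Nmd- first), 58 (Nmd- late) and 30 (slope). When the 6 arrays with markers against the label were left out they were 28 in the Nmd+ middle phase, 43 for the middle difference, 0 in the Nmd+ late phase, 22 in the Nmd- first response and 59 in the Nmd- late phase; in the last, 0 without the 60 min array of replicate 1 and 36 without all 7.

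Centring on the reference probe sets moved the median of all probe sets by up to -0.36 in a phase (Nmd+ middle) and by 0.46 in the middle difference. The members called lower then numbered 1 in the Nmd+ first response, 68 in the Nmd+ middle, 63 in the Nmd+ late, 50 in the Nmd- first and 76 in the Nmd- late phase, and 80 were called higher in the middle difference. This shift acts on every probe set, and the share of all probe sets called after it is not given. For the Nmd+ first response 1 was called lower also with 8 min alone, with the running median, with a mean log2 value of at least 5 and with the variance trend. With 8 min alone none was called in the Nmd- first response and the middle difference, and 1 was called lower in the Nmd- middle phase; with 0-2 min none was called in the middle difference. With no fold minimum 21 fell in the Nmd- first response, and with the running median 32 fell in the Nmd- late phase. With 8 min alone the Nmd- first response of *RPL36A* (0.28), *RPL12A/B* (0.09), *RPL9B* (0.09) and *RPL13A* (0.04) and the middle difference of *RPL22B* (-0.17) changed sign. Leaving out 1 course gave 0 to 1 higher and 0 to 2 lower at 0 min, 0 to 34 in the Nmd+ middle, 0 to 48 in the Nmd+ late, 3 to 14 in the Nmd- first and 0 to 23 in the Nmd- late phase, 0 to 1 for slope and 0 to 40 for the middle difference. Counts without a call depend on 3 courses per strain.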
